A study of Rattus norvegicus with 32 samples.

Results

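The 9 lymphocyte and NK cell marker genes described here are the T cell genes Cd3e, Cd3d, Cd4 and Cd8a, the B cell gene Cd79b, and the NK and cytotoxic cell genes Nkg7, Prf1, Gzmb and Klrd1. They were chosen by name, as every non-control probe whose gene name in the array files equalled one of these symbols. This gave 11 probes of the 45598 different probes on the array, with 1 probe for each gene except Cd4 and Gzmb, which had 2 each. Where a gene had 2 probes, the brighter one over all arrays was taken as the main probe and the other is given beside it. Of the 9 genes, 7 were bright enough to be tested in the males and 6 in the females: Cd3e and Cd79b were tested in neither sex, and Cd8a in the males only.

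Cd3e and Cd3d encode invariant chains of the CD3 complex, through which the T cell receptor signals. Cd4 and Cd8a encode the coreceptors that bind MHC class II and class I molecules and divide T cells into helper and cytotoxic cells, and in the rat CD4 is also carried by macrophages. Cd79b encodes the signalling partner of the B cell receptor. NK cells and cytotoxic T cells kill their targets by releasing granules that hold perforin (Prf1), which opens the target cell membrane, and granzymes such as granzyme B (Gzmb), a protease that starts apoptosis in the target. Nkg7 encodes a membrane protein of these granules, and Klrd1 encodes CD94, the common partner of several NKG2 receptors on NK cells. The healthy heart holds few lymphocytes among its cardiomyocytes, endothelial cells, fibroblasts and resident macrophages.

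The samples were left ventricles of male and female Wistar rats aged 9 to 12 weeks, collected 20 h after surgery. The groups were sham surgery (5 males and 5 females), caecal ligation and puncture (CLP, a model of abdominal sepsis, 5 males and 5 females) and CLP plus landiolol, a short-acting blocker of the beta-1 adrenergic receptor (6 males and 6 females). Infusion began 1 h after CLP, with landiolol at 0.1 mg per kg per min in saline or with saline alone, at a similar volume in all groups, and the rats also had buprenorphine (0.05 mg per kg) against pain. The hearts underwent imaging in the living animal and perfusion outside the body before they were frozen, which is a step that all groups share and that bears on blood cells left in the vessels. Each sample was a separate rat with its own 1-colour array, so that an SD is a spread between rats.

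Levels are log2 of the deposited processed spot intensity after quantile normalisation within a sex, and differences are log2 fold changes from the limma fit over the 3 groups of that sex. A difference was called at an adjusted p (Benjamini-Hochberg over all probes tested) under 0.01 for comparisons with sham and under 0.05 for CLP plus landiolol against CLP. The arrays had between 34920 and 43155 spots well above background, and no spot was saturated. The cardiomyocyte markers summed to a log2 level of 21.5 to 21.7 in every male group, and none of the 11 tested was called in either sex in any comparison with sham. In bulk tissue, fewer cells of a type and less RNA per cell cannot be told apart. Males and females were hybridised on different slides, so that sex and slide cannot be told apart.

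The probes of the NK and cytotoxic genes are given here, with that of Cd3e as a T cell gene near background, because each level below is the hybridisation of 1 such 60-base stretch. Coordinates are those in the array files, on the rat build rn4. No gene models of that build were used here, so exons and untranslated regions were not assigned. The probe of Gzmb shown is the less bright of its 2 probes, and the main one, which gives the Gzmb levels unless stated otherwise, is given by its position. The sequences are in lower case throughout since no base is singled out.
Prf1, chr20:28663319-28663378, plus strand: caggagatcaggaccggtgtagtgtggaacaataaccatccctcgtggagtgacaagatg
Nkg7, chr1:93813978-93814037, plus strand: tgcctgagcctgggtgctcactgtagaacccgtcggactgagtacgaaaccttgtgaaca
Gzmb, chr15:35196479-35196538, minus strand: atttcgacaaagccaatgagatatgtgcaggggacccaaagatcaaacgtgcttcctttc
Klrd1, chr4:166878801-166878860, plus strand: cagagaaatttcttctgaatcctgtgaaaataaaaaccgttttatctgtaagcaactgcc
Cd3e, chr8:47950313-47950372, minus strand: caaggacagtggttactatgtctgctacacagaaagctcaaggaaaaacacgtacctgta

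The main probe of Gzmb lies at chr15:35195458-35195517 on the minus strand. Granzymes form a family of related proteases, so both Gzmb probes were set against the 28 probes of other granzyme family genes on the array without gaps. The closest matched the main probe at 27 of 60 bases (Gzmm) and the other probe at 25 of 60 bases (Mcpt1l3). The remaining probes were Cd3d at chr8:47936669-47936728 (plus strand), Cd4 at chr4:160987322-160987381 and chr4:160988512-160988571 (both minus strand), Cd8a at chr4:104593483-104593542 (plus strand) and Cd79b at chr10:95703614-95703673 (minus strand).

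CLP was set against sham to ask how sepsis altered these genes in the myocardium. In the females, Gzmb fell after CLP by 1.84 on the log2 scale (3.57-fold), and it was the only one of the 9 genes called. In the males no gene of the 9 was called at the 1% threshold, and Gzmb and Nkg7 had the lowest adjusted p-values. The other NK and cytotoxic genes had lower means after CLP in both sexes, whereas Cd3d and Cd4, the T cell genes bright enough to be measured on all 32 arrays, had differences between −0.10 and 0.09. Over all probes tested, the share called in CLP against sham was 7.81% in the males and 3.63% in the females. At an adjusted p under 0.05, 2 of the 7 genes tested in the males were lower after CLP (Nkg7 and Gzmb), against 8.12% of all probes tested. In the females, 2 of the 6 tested were lower (Gzmb and Klrd1), against 4.97%. Klrd1 entered the test only through its sham arrays, where it was highest, so it adds nothing to this count.

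Gzmb, the granule protease, showed the largest fold change of the tested genes after CLP in both sexes. In the males, the sham levels were 6.65, 7.43, 6.88, 6.24 and 6.28, and the CLP levels were 4.90, 5.0, 6.0, 4.38 and 5.78. Every CLP male lay below every sham male. The mean went from 6.70 ± 0.486 (SD, n = 5) to 5.21 ± 0.667 (n = 5), a log2 fold change of −1.49 with an SE of 0.427 and an adjusted p of 0.0266. With 1 array left out at a time this adjusted p ranged from 0.0078 (without treated replicate 5) to 0.0767. It was 0.0519 with no filter on dim probes. In the females, the sham levels were 5.92, 6.74, 6.23, 7.47 and 7.91, and the CLP levels were 4.85, 5.59, 4.86, 4.51 and 5.29. The female groups did not overlap either. The mean fell from 6.86 ± 0.832 (n = 5) to 5.02 ± 0.422 (n = 5), with an SE of 0.357 for the difference and an adjusted p of 0.0042, which ranked 591st among the 25395 probes tested. Within slides, the female difference was −1.64 on slide 3 and −2.11 on slide 4, and the male difference was −1.74 on slide 1 and −1.39 on slide 2. The female call was lost without sham replicates 4 (adjusted p 0.0124) or 5 (0.0107) or CLP replicates 3 (0.0118) or 4 (0.013). It was also lost with no filter on dim probes (0.0104), with a term for slide row (0.0276), with only the CLP and sham females in the fit (0.0155), and with normexp background correction, where the log2 fold change was −0.90 and the adjusted p 0.0118. The CLP females varied more widely than the sham females in the erythroid genes, whose summed log2 level ranged from 10.8 to 16.8 in CLP against 11.7 to 11.95 in sham.

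The other Gzmb probe gave differences in the same direction. In the males, its levels ranged from 5.44 to 6.62 in sham and from 3.35 to 5.37 in CLP, with 3 of 5 CLP arrays well above background, and the log2 fold change was −1.45 (adjusted p 0.0452). In the females, its levels ranged from 5.62 to 7.76 in sham and from 3.93 to 4.97 in CLP, with 1 of 5 CLP arrays well above background. The female log2 fold change was −2.32 with an SE of 0.348 and an adjusted p of 0.000725, a 4.98-fold difference. Deviations of the 2 probes from their group means were correlated over the 16 males (Pearson r = 0.935, permutation p = 3e-05, adjusted p = 6e-05 over both sexes, Spearman rho = 0.912), and r was 0.873 without the 2 farthest males. Over the 16 females, r was 0.648 (permutation p = 0.0283) and rho 0.497 (permutation p = 0.115), and r was 0.35 without the 2 farthest females, so that the female relation rested on those rats.

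Klrd1, which encodes CD94 of NK cells, was dim. In the males, the sham levels were 4.72, 5.02, 4.73, 4.67 and 4.97, and the CLP levels were 4.11, 4.25, 3.83, 3.16 and 4.44. All 5 sham males and none of the 5 CLP males were well above background, and the groups did not overlap. Against the dimmest probes well above background on the CLP arrays, CLP males were 1.79-fold lower (measured means 3.96 and 4.82, fitted log2 fold change −0.86, SE 0.52, adjusted p 0.307). This floor (3.98) was close to the measured CLP mean and carries no spread between rats, so it sets no least size of the difference. On the authors' own log2 values the male log2 fold change was −0.06. In the females, the sham levels were 5.80, 5.23, 4.87, 5.24 and 5.45, and the CLP levels were 4.16, 4.31, 4.58, 4.04 and 4.29, of which only the value of 4.58 was well above background. The female groups did not overlap, and the log2 fold change was −1.04 (SE 0.235, adjusted p 0.011), a 2.06-fold difference just outside the 1% threshold. It passed when sham replicate 3, or treated replicate 4 or 5 of the females, was left out (adjusted p 0.00978, 0.00841 and 0.00262), and with only the CLP and sham females in the fit (0.0088). The adjusted p reached 0.0328 over the arrays left out and 0.339 over the other settings. With normexp correction, which adds an offset to dim spots, the fitted Klrd1 differences shrank to −0.21 in the males and −0.28 in the females.

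Nkg7, the granule membrane gene, was measured well above background on all 32 arrays. In the males, the sham levels were 9.11, 9.71, 9.26, 9.55 and 8.95, and the CLP levels were 8.34, 8.58, 8.92, 7.90 and 8.54. The highest CLP male lay just below the lowest sham male. The log2 fold change was −0.86 (SE 0.229, adjusted p 0.0178), a 1.81-fold difference. With 1 array left out at a time the adjusted p ranged from 0.0136 to 0.0529. In the females, the sham levels were 9.33, 8.41, 9.52, 9.27 and 8.94, and the CLP levels were 8.54, 8.98, 8.34, 7.99 and 8.34. The female groups overlapped, since 1 sham female was as low as the CLP females, and the log2 fold change was −0.66 (SE 0.213, adjusted p 0.0661).

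Prf1, which encodes perforin, had the least difference among the NK and cytotoxic genes. In the males, the sham levels were 6.82, 7.54, 7.11, 7.77 and 6.85, and the CLP levels were 6.91, 6.87, 7.11, 6.09 and 7.06. The male groups overlapped over most of their range, and the log2 fold change was −0.41 (SE 0.274, adjusted p 0.361). In the females, the sham levels were 7.42, 6.34, 6.92, 7.05 and 7.04, and the CLP levels were 6.67, 6.66, 6.46, 5.85 and 6.38. All but 1 of the sham females lay above all CLP females, and the log2 fold change was −0.55 (SE 0.218, adjusted p 0.136). Sham and CLP did not overlap, with CLP lower, for 3 of the 7 genes tested in the males (Gzmb, Nkg7 and Klrd1). This held for 2 of the 6 tested in the females (Gzmb and Klrd1). Non-overlap with CLP lower was seen for 6.2% of all probes tested in the males and 4.37% in the females. Klrd1 adds nothing to these counts, since it was tested only through its sham arrays, where it was highest.

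**Figure D1:**
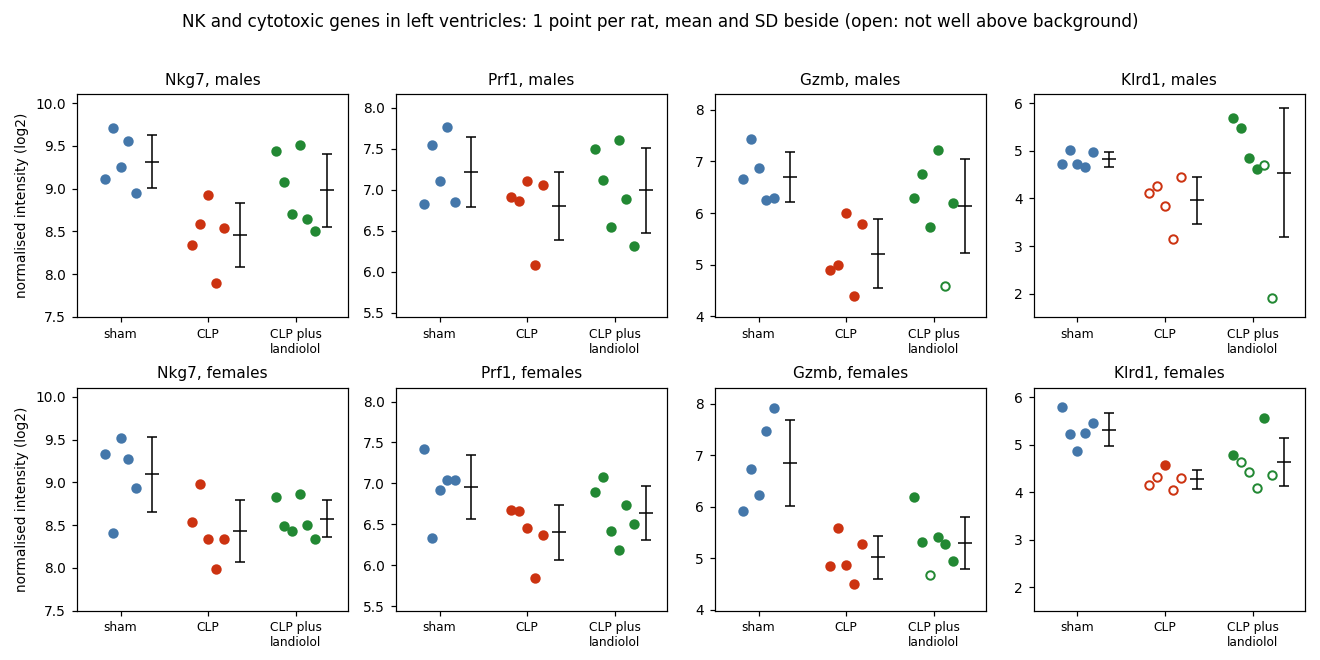
Normalised intensity (log2) of Nkg7, Prf1, Gzmb and Klrd1 in each rat by group, males above and females below, with the group mean and SD beside the points and open points for arrays not well above background. Gzmb in CLP rats lay below Gzmb in sham rats in both sexes, and the CLP points of Klrd1 were open in all 5 males.

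Among the T cell genes, Cd3d and Cd4 had means in CLP close to those in sham. Cd3d, a chain of the CD3 complex, had levels of 8.17, 7.70, 7.79, 7.31 and 7.73 in sham males and 7.44, 7.57, 7.54, 7.93 and 7.70 in CLP males. In the females, the levels were 7.77, 7.63, 8.30, 7.34 and 8.06 in sham and 8.15, 7.56, 7.94, 7.32 and 8.23 in CLP. Groups overlapped throughout in both sexes, with log2 fold changes of −0.10 (SE 0.157, adjusted p 0.738) in the males and 0.02 (SE 0.216, adjusted p 0.975) in the females.

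Cd4, the helper T cell coreceptor that rat macrophages also carry, had the highest levels on its main probe. The levels were 10.91, 10.60, 10.81, 10.30 and 10.81 in sham males and 10.68, 10.69, 10.55, 10.66 and 10.80 in CLP males. In the females they were 10.33, 10.27, 10.66, 10.39 and 10.38 in sham and 10.79, 10.90, 10.25, 9.99 and 10.56 in CLP. The groups overlapped in both sexes, the CLP females spread more widely than the sham females, and the log2 fold changes were −0.01 (SE 0.125, adjusted p 0.973) in the males and 0.09 (SE 0.161, adjusted p 0.796) in the females. The other Cd4 probe was dimmer, at 3.72 to 6.54 over all arrays, and gave log2 fold changes of 0.28 (adjusted p 0.54) and 0.24 (adjusted p 0.793). The transcript that the array files name for the main probe was not among the RefSeq transcripts of Cd4, whereas that of the dimmer probe was.

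Cd8a, the cytotoxic T cell coreceptor, lay near background, and in the males it was tested only through its sham arrays. In the males, the sham levels were 4.78, 4.63, 5.09, 4.12 and 3.58, of which all but the value of 3.58 were well above background, and the CLP levels were 3.02, 3.57, 4.15, 3.38 and 4.31, none of which were. The groups overlapped, and CLP males were 1.54-fold lower against the same kind of floor as for Klrd1 (measured means 3.68 and 4.44, fitted log2 fold change −0.75, SE 0.431, adjusted p 0.276). The fitted value ranged from −0.96 to −0.03 over the alternatives, so this fold is no least size either. In the females, 3 of 16 arrays were well above background, and the gene was not tested.

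Cd3e, the other CD3 chain, and Cd79b, the B cell receptor partner, were not well above background on nearly all arrays. Cd3e was well above background on 1 of 16 male and 1 of 16 female arrays, with group means between 2.69 and 3.37. Cd79b was well above background on 1 of 16 male arrays, a sham male at 4.0, and on none of the 16 female arrays. Differences of these 2 genes between groups were not measurable on these arrays, and a lack of signal on 1 probe does not show that the cells were absent. The T cell label therefore rests on Cd3d here, since rat macrophages also carry CD4, and the B cell label could not be checked with Cd79b.

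**Figure D2:**
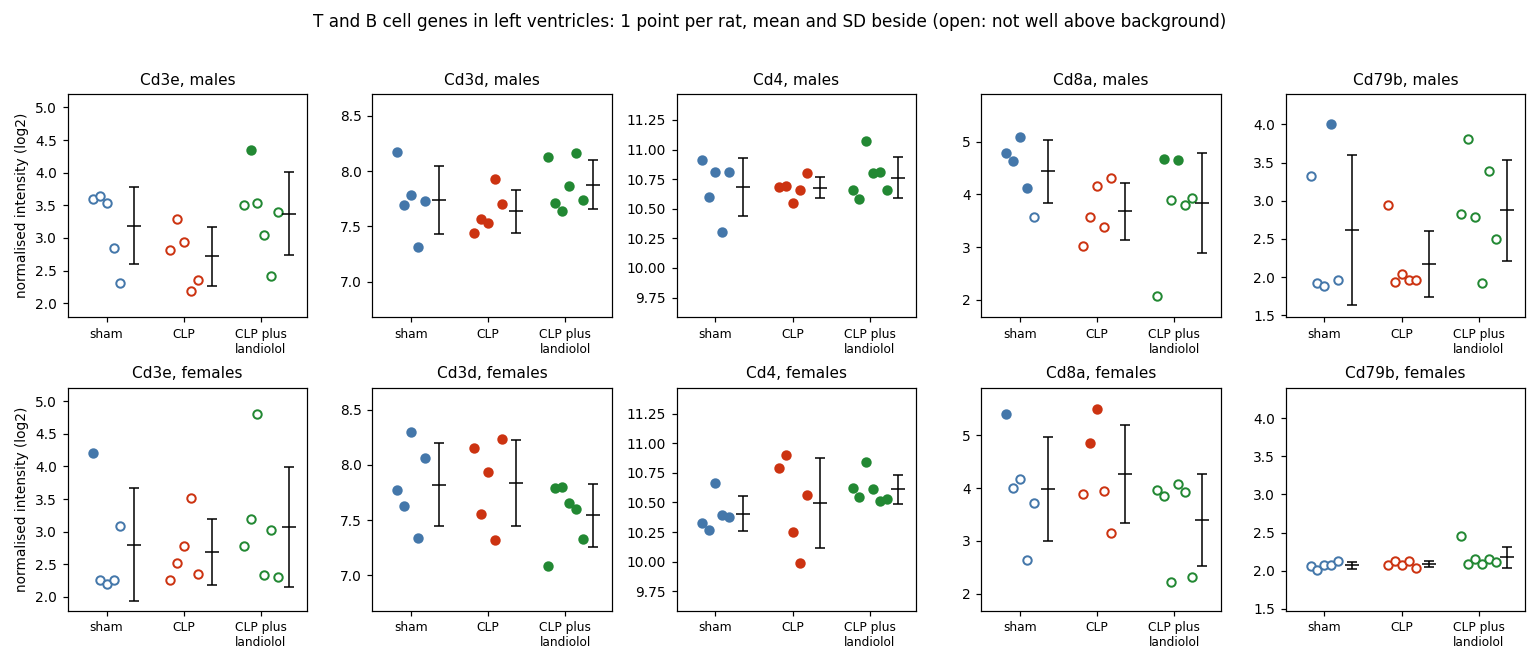
Normalised intensity (log2) of Cd3e, Cd3d, Cd4, Cd8a and Cd79b in each rat by group, males above and females below, with the group mean and SD beside the points and open points for arrays not well above background. The points of Cd3d and Cd4 were filled and overlapped between groups, and almost all points of Cd3e and Cd79b were open.

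Landiolol was compared with CLP alone to ask whether the beta blocker altered these genes in septic rats, and with sham to place the treated rats. All 3 comparisons in a sex share rats, as CLP enters 2 of them and so does sham, so that their differences are not independent. In the males, none of the 9 genes was called in CLP plus landiolol against CLP, where 1.56% of all probes were called, nor in CLP plus landiolol against sham, where 4.15% were called. In limma's unadjusted test at p under 0.05, 2 of the tested genes passed in the first of these comparisons (Gzmb and Nkg7), where 14.8% of all probes did, and 0 in the second, where 24.2% did. In the females, none was called against CLP, where 0.0945% of all probes were called and 0 genes of the 9 passed the unadjusted test against 9.34% of all probes, and Gzmb was called against sham, where 5.25% of all probes were called.

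In the landiolol-treated males, Gzmb ranged from 4.58, which was not well above background, to 7.23, with a median of 6.24. This range spanned both the CLP and the sham males. The log2 fold change was 0.92 against CLP (unadjusted p 0.0394, adjusted p 0.309) and −0.57 against sham (adjusted p 0.43). In the treated females, Gzmb ranged from 4.68, which was not well above background, to 6.18, with a median of 5.30. They overlapped the CLP females over most of the range and the lowest of the sham females, and the mean was 5.30 ± 0.509 (SD, n = 6). Gzmb was 2.94-fold lower in the treated females than in sham (log2 fold change −1.56, SE 0.341, adjusted p 0.00733) and differed from CLP by 0.28 (adjusted p 0.867). On the other Gzmb probe, the female log2 fold change against sham was −1.43 with an adjusted p of 0.0104, outside the threshold, and that against CLP was 0.88 (adjusted p 0.395). The call against sham was also lost with normexp correction, raw mean intensity, no filter on dim probes, a slide term, and only the 2 groups in the fit. It was lost when any 1 of sham replicates 2, 4 and 5, CLP replicate 3 and treated replicates 2 to 6 was left out, with log2 fold changes between −1.58 and −1.29 and adjusted p of up to 0.0229. All sham females lay in the first row of their slides and all treated females in the second row, and with the row as a term the female difference from sham was −1.35 with an adjusted p of 0.52. Row and group are thus the same split for this comparison, and only the CLP females, on both rows, let the row term be fitted. The part of the row in the difference cannot be told apart. This holds for every difference between treated and sham females in this text.

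The other NK and cytotoxic genes of the treated males lay between sham and CLP in their means. Nkg7 ranged from 8.51 to 9.50 with a median of 8.89, overlapping both other groups, with log2 fold changes of 0.52 against CLP (unadjusted p 0.03, adjusted p 0.276) and −0.34 against sham (adjusted p 0.375). Prf1 ranged from 6.31 to 7.60 with a median of 7.0, again across both groups, with log2 fold changes of 0.19 against CLP (adjusted p 0.755) and −0.23 against sham (adjusted p 0.641). Klrd1 ranged from 1.91 to 5.68 with a median of 4.78, and 4 of 6 arrays were well above background against 0 of 5 in CLP. The measured means were 4.54 and 3.96, a difference that did not pass (adjusted p 0.602), and it was 1.28 on slide 1 and −0.06 on slide 2. The lowest treated male lay below every CLP male.

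In the treated females, Nkg7 ranged from 8.34 to 8.86 with a median of 8.50, overlapping CLP and the lowest sham rat, with log2 fold changes of 0.14 against CLP (adjusted p 0.895) and −0.52 against sham (adjusted p 0.111). Prf1 ranged from 6.18 to 7.09 with a median of 6.62, and differed by 0.23 from CLP (adjusted p 0.792) and by −0.32 from sham (adjusted p 0.367). Klrd1 ranged from 4.10 to 5.56 with a median of 4.53, and 2 of 6 arrays were well above background. Its log2 fold changes were 0.37 against CLP (adjusted p 0.658) and −0.67 against sham (adjusted p 0.0609), and the latter passed without treated replicate 5 (−0.85, adjusted p 0.00801).

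Among the T cell genes of treated rats, Cd3d ranged from 7.64 to 8.16 with a median of 7.80 in the males and from 7.08 to 7.80 with a median of 7.63 in the females. Cd4 ranged from 10.58 to 11.07 with a median of 10.73 in the males and from 10.51 to 10.84 with a median of 10.58 in the females. Both genes overlapped with sham and CLP in both sexes. Cd8a in the treated males ranged from 2.08, not well above background, to 4.66, with a median of 3.91.

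**Figure D3:**
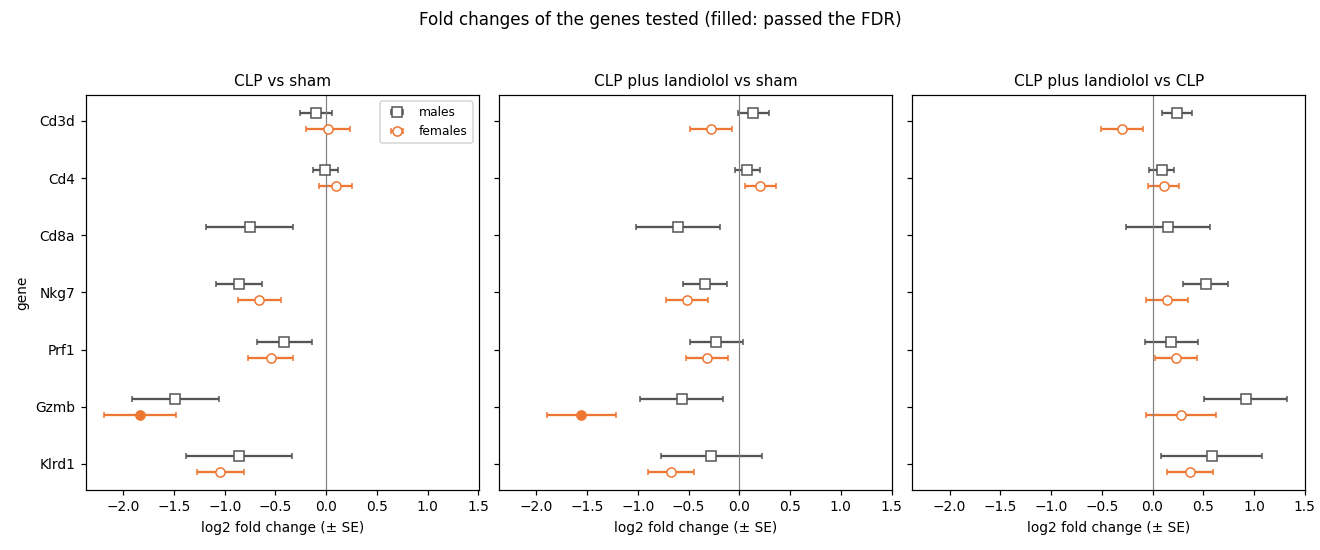
Log2 fold changes with SE from limma for the genes tested, in the 3 comparisons, with squares for males, circles for females and filled symbols for those that passed the FDR. The filled symbols were the female Gzmb differences from sham, −1.84 after CLP and −1.56 after CLP plus landiolol.

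The difference between the sexes in each comparison was tested as an interaction over all 32 arrays. No probe of the array passed at an adjusted p under 0.05 in CLP against sham (0% of 26492), in CLP plus landiolol against sham (0%) or in CLP plus landiolol against CLP (0%). For Gzmb, the female minus male difference was −0.34 (SE 0.577, unadjusted p 0.564, adjusted p 1) in CLP against sham, and −0.98 (SE 0.553, unadjusted p 0.0863, adjusted p 0.834) in CLP plus landiolol against sham. The call of Gzmb in the females and not in the males is thus not shown to be a difference between the sexes. Cd3d had an unadjusted p of 0.046 in CLP plus landiolol against CLP (−0.54, adjusted p 0.968).

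To set the NK and cytotoxic genes against a T cell gene within the same array, each level was taken relative to Cd3d, a ratio chosen after the values had been seen. For CLP against sham, the difference in this ratio was −1.38 for Gzmb in the males, with an exact permutation p of 0.00794, the smallest that 5 against 5 rats allow, and −1.86 in the females (exact permutation p 0.0159). Klrd1 is not described this way, since it was not well above background on most CLP arrays. For Nkg7 it was −0.757 (exact permutation p 0.0556) and −0.678 (0.0635), and for Prf1 −0.309 (0.452) and −0.568 (0.0794). After adjustment over the 24 ratios compared, none passed at 0.05, and the adjusted p for Gzmb was 0.187.

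Rats that deviated from their group mean in one gene were then compared in the others, to describe which of the genes varied together within groups. Deviations were correlated over the 16 arrays of a sex for 36 pairs of tested genes, 21 in the males and 15 in the females. The r ranged from −0.474 to 0.927 in the males with a median of 0.101, and from −0.224 to 0.645 in the females with a median of 0.168. Only Nkg7 and Prf1 in the males passed adjustment over the 36 pairs. Their Pearson r was 0.927, with a permutation p of 1e-05, the smallest the resampling can give, and an adjusted p of 0.00036. Spearman's rho was 0.912 (permutation p 7e-05, adjusted p 0.00252), and r was 0.904 without the 2 farthest males. In the females, the same pair had an r of 0.562 (permutation p 0.0456, adjusted p 0.324) and a rho of 0.512, and r stayed at 0.561 without the 2 farthest females. By contrast, the T cell genes Cd3d and Cd4 had an r of 0.426 in the males and 0.415 in the females, neither past adjustment.

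**Figure D4:**
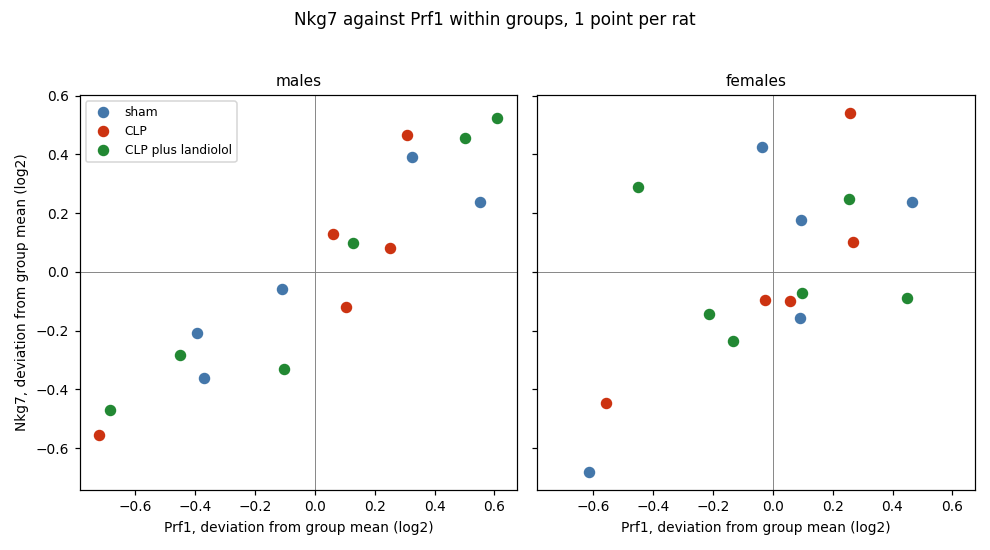
Deviation of Nkg7 from its group mean against that of Prf1 (both log2), 1 point per rat, males on the left and females on the right, coloured by group. The male points lay close to a line (r = 0.927) and the female points were more scattered (r = 0.562).

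The promoters of Nkg7 and Prf1, which varied together, and of Gzmb, which fell, are shown to give the sequence context of their transcription start. They were taken from RefSeq (rat build GRCr8), as 300 bases from 250 before to 50 after the start, and were found for 6 of the 9 genes (Cd3e, Cd3d, Cd8a, Nkg7, Prf1 and Gzmb). Capitals mark matches on either strand to the letters TGTGGT, the core bound by RUNX factors, TGANTCA, the element of AP-1, TGACGTC, a form of the cyclic AMP response element, and TATAAA, the core promoter box. Matches did not overlap each other in these promoters.
Gzmb, chr15:34462420-34462719, minus strand: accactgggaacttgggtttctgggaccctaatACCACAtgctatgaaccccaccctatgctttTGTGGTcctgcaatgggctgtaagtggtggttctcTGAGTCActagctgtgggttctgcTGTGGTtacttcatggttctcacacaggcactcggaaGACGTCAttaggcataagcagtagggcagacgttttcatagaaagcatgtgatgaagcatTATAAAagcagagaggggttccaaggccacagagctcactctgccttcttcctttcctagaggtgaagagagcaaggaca
Prf1, chr20:29788790-29789089, plus strand: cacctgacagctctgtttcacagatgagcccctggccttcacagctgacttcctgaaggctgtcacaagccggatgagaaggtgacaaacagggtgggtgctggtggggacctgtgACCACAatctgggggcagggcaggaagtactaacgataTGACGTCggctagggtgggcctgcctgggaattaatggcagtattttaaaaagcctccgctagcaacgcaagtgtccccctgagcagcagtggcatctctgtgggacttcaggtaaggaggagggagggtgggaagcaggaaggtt
Nkg7, chr1:102981247-102981546, plus strand: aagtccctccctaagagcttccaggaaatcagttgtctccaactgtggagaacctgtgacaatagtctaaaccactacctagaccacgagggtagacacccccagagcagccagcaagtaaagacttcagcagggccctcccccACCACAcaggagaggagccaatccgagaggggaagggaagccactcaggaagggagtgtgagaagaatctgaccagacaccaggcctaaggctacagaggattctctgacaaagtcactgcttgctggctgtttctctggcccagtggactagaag

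The Gzmb promoter held the RUNX letters 3 times, at −217, −186 and −127 from the start, with TGANTCA at −151, TGACGTC at −90 and TATAAA at −30. The Prf1 promoter held the RUNX letters at −134 and TGACGTC at −96, and the Nkg7 promoter held the RUNX letters at −106. None of these letters was found in the windows of Cd3e, Cd3d and Cd8a. Of all 33469 promoters of the same length, 17.3% held the RUNX letters, 7.33% held TGANTCA, 3.22% held TGACGTC and 14.2% held TATAAA. A match is a description of the sequence, and binding was not measured.

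Other genes of NK and cytotoxic cells were followed in a list of 33 genes, which includes the 4 described above. Of the 20 tested in the males, 2 fell after CLP and 0 rose, with a median log2 fold change of −0.54 and 15 below 0. Of the 18 tested in the females, 3 fell and 0 rose, with a median of −0.535 and 14 below 0. Of all probes tested, 3.94% were called lower in the males and 1.82% in the females, and 3.88% and 1.82% were called higher. Their median log2 fold changes were 0.00908 and −0.015. These values are the background for the counts of this and the next lists. Xcl1, which encodes a chemokine released by NK and CD8 T cells, fell in both sexes. Its level went from 7.48–8.93 in sham to 6.15–7.38 in CLP males and from 7.80–8.57 to 6.44–6.79 in the females. These are log2 fold changes of −1.44 (SE 0.308, adjusted p 0.00483) and −1.69 (SE 0.207, adjusted p 0.000163), with no overlap of the groups. Il2rb, the beta chain of the interleukin-2 and interleukin-15 receptors, fell in the males by 0.73 (adjusted p 0.00447) and had a log2 fold change of −1.0 in the females (adjusted p 0.0181). Gzmc, another granzyme, fell in the females by 2.40 (adjusted p 0.000543), and in the males its log2 fold change was −1.65 with an adjusted p at the threshold (0.01), which did not pass.

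Other granule genes had differences closer to 0 or above it. Gzma, the other abundant granzyme of NK cells, had log2 fold changes of −0.19 in the males and −0.05 in the females, and Gzmk, a granzyme of memory T cells, had 0.63 and 0.46, none of them called. Ccl5, a chemokine stored by cytotoxic cells, had −0.16 in both sexes, not called. The defining NK receptor gene Ncr1 was not bright enough to be tested, nor were Klrc1, Klrg1, Eomes and Ifng. In CLP plus landiolol against sham, Xcl1 and Gzmb were the 2 genes of the list that fell in the females (Xcl1 by 1.38, adjusted p 0.00042), and in the males 0 fell and 1 rose, Cd244, a receptor of NK cells and monocytes (2.04). In CLP plus landiolol against CLP, Cd244 was again the only gene of the list called in the males (1.20, adjusted p 0.0253), where 0.804% of all probes were called higher. Of the 20 genes, 19 had a positive log2 fold change, with a median of 0.477 against −0.0062 over all probes. This lean was not particular to the list, as 14 of 17 T cell, 7 of 8 endothelial and 7 of 8 fibroblast genes were positive too. Platelet (2 of 4) and mast cell genes (2 of 5) did not share it. In the females, 0 of 18 were called, 12 were positive, and the median was 0.231 against 0.0281 over all probes.

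**Figure D5:**
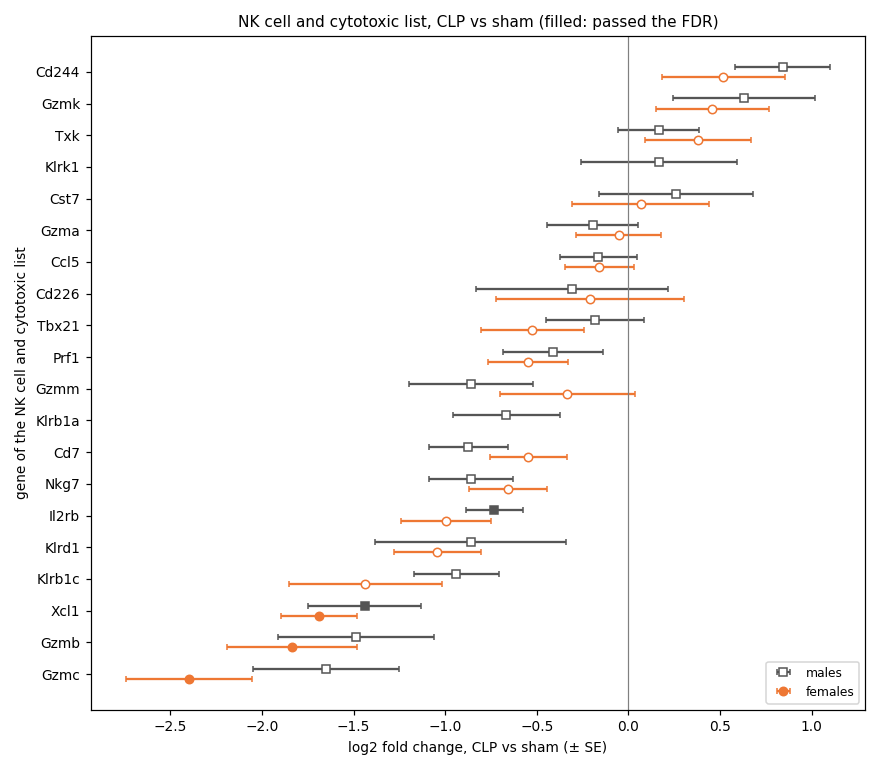
Log2 fold change (CLP against sham, with SE) of the tested genes of the NK cell and cytotoxic list, with squares for males, circles for females and filled symbols for those that passed the FDR. Filled symbols lay on the lower side only: Xcl1 and Il2rb in the males, and Gzmc, Gzmb and Xcl1 in the females.

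Among 27 T cell genes, 17 were tested in the males and 16 in the females. After CLP, 1 rose and 1 fell in the males, and 0 were called in the females, with medians of −0.325 and −0.197. As in the NK and cytotoxic list, most lay below 0 in the males (13 of 17), and in the females 9 of 16 did. The gene that fell was Cd247, the zeta chain of the T cell receptor complex, which NK cells also use (−0.97, adjusted p 0.00245). The gene that rose was Cd6, a T cell costimulatory receptor (1.62, adjusted p 0.0029). Cd247 rose in the males in CLP plus landiolol against CLP (1.0, adjusted p 0.0121), with levels of 6.35 to 7.03 in treated, 5.16 to 6.16 in CLP and 6.60 to 6.97 in sham males. Treated and CLP males did not overlap in Cd247. Among 27 tested genes of antigen receptor signalling, 3 rose and 0 fell in the males and 2 rose and 1 fell in the females after CLP. The medians were −0.0731 and −0.234, and 16 and 17 of the 27 lay below 0. Cblb, a ubiquitin ligase that restrains T cell activation, rose in both sexes (2.24 and 2.0). In CLP plus landiolol against CLP, 4 of the 27 rose and 0 fell in the males, where 0.804% of all probes were called higher, and 0 were called in the females.

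The B cell list had 19 genes with a probe, of which 10 were tested in the males and 9 in the females. The B cell markers Ms4a1 and Cd79a were, like Cd79b, not bright enough to be tested. Over the tested genes of the list, the median log2 fold change after CLP was −0.172 in the males, with 7 of 10 below 0. In the females it was 0.0324, with 4 of 9 below 0. Fcer2, the low-affinity IgE receptor of B cells, was the only gene of the list called after CLP and fell in both sexes. Its level was 8.55 to 10.57 in sham and 4.16 to 7.12 in CLP males (log2 fold change −3.57, adjusted p 0.00549), and 7.33 to 9.32 in sham and 3.51 to 5.98 in CLP females (−3.29, adjusted p 0.000842). Groups did not overlap in Fcer2, and it stayed low in CLP plus landiolol (−4.17 in the males and −3.31 in the females against sham).

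Some genes of myeloid blood cells rose on the same arrays. After CLP, 4 of 13 tested macrophage and monocyte genes rose in the males and 3 in the females and 0 fell, with medians of 0.616 and 0.472. Of 4 tested neutrophil genes, 3 rose in the males and 2 in the females, with medians of 2.25 and 2.15. S100a8 was well above background on 0 of 5 sham males and 1 of 5 sham females, and S100a9 on 3 and 2 of 5. Both entered the test only through the septic rats, where they were highest. They therefore add nothing to these counts and medians, nor to the neutrophil sums below. Il1r2, which rose in both sexes, was well above background on all sham arrays. Of all probes tested, 3.88% were called higher in the males and 1.82% in the females. The summed log2 level of the neutrophil genes was 6.41 to 6.98 in sham, 8.22 to 10 in CLP and 8.52 to 10.1 in treated males, and 6.35 to 7.32, 8.31 to 9.82 and 8.43 to 10.4 in the females. The summed level of the T cell genes was 12.1 to 12.4 in all 3 male groups. Among the females it was 12.04 to 12.55 in sham, 12.11 to 14.03 in CLP and 11.95 to 12.36 in treated rats. That of the NK and cytotoxic genes was 14.9 to 15.7 in sham, 14.5 to 15.5 in CLP and 14.9 to 16.1 in treated males. Its female ranges were 15.37 to 16.4, 14.54 to 15.96 and 14.87 to 15.64. Each sum was taken over unlogged intensities, so the brightest genes of a list weigh most. Nkg7, the brightest of the 4 NK and cytotoxic genes described here, lay at 8.95 to 9.71 in sham males, so changes in these 4 hardly move the sum. The part of these other cells in the differences of the NK and cytotoxic genes was not tested.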

How the data were processed

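Total RNA of each left ventricle, with an RNA integrity number above 8, was labelled with Cy3 and hybridised to 1-colour Agilent rat arrays, which were read by Feature Extraction 10.5 per the labels. The deposited scanner files hold linear intensity per spot, already background-subtracted by that software, and these processed intensities were used. A deposited table holds the authors' log2 values, quantile-normalised and filtered on background, which served as an alternative; its columns correlated with the values used here at r of 0.988 to 0.997 in the males and 0.991 to 0.996 in the females, with column medians of 9.62 to 9.71, and its centring is unknown.

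Control spots and 13371 outlier spots were left out, spots of 1 probe were averaged, and log2 values were quantile-normalised within each sex in R 4.3.3. A probe was tested where 1 or more groups had it well above background on 80% or more of their arrays, with limma 3.58.1 (lmFit and eBayes over the 3 groups of a sex) with Benjamini-Hochberg adjustment at an FDR of 1% against sham and 5% for CLP plus landiolol against CLP. The sex interaction was fitted on all 32 arrays normalised together, at 5%. Where every array of a group had a probe too dim to count as well above background, a fold against a floor is given beside the fitted value. The floor is the mean of, per array, the higher of the lowest signal well above background and the probe's own. This fold carries no spread between rats. Correlations used 100000 permutations. The fits were tested on simulated data. The alternatives were scaling to the 75th percentile, both sexes normalised together, other background corrections (normexp with an offset of 50), filters, priors, thresholds and probes, slide and row terms, the authors' table, only the groups compared, and leaving out each array. The number of arrays limits the precision.

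The members and the gene lists were chosen with earlier results of these data known. The text names the 9 genes and, from the wider lists, only some of the genes called in a comparison. From antigen receptor signalling only Cblb is named. The called genes of the macrophage and monocyte, endothelial, fibroblast, erythroid and mast cell lists are not named. Gzma, Gzmk, Ccl5 and the untested markers were named after their values were seen.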

Additional observations from a re-analysis of the deposited data

Results flagged for a closer look

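Within-group outliers were sought by the gap of the highest or lowest rat to its nearest neighbour relative to the range of its group (Dixon's 95% criterion). Of the 39 groups looked at, 4 were flagged, where chance flags about 1 in 20 groups. Prf1 was lowest in CLP male replicate 4, at 6.09, with the nearest rat at 6.87. Cd8a was lowest in CLP plus landiolol male replicate 1, at 2.08, with the nearest at 3.80, and Klrd1 was lowest in CLP plus landiolol male replicate 6, at 1.91, with the nearest at 4.62; neither spot was well above background. Cd4 was highest in CLP plus landiolol female replicate 3, at 10.84, with the nearest at 10.62.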

How the results depend on the processing

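No log2 fold change of the 9 genes that had been called changed direction under any alternative run. In CLP against sham, the count of genes called in the females was 1 and became 0 with normexp correction, with no filter and with a term for slide row (Gzmb adjusted p 0.0118, 0.0104 and 0.0276), and 2 with the thresholds exchanged. With only the groups compared in the fit it stayed at 1 but was another gene, as Gzmb lost its call (adjusted p 0.0155) and Klrd1 gained one (0.0088). In the males it was 0 and became 2 with the thresholds exchanged. In CLP plus landiolol against sham in the females, the count was 1 and became 0 with normexp correction, raw mean intensity, no filter, slide as a term, the row term, the other probe of Gzmb and only the groups compared. Leaving out each array in turn gave counts of 0 to 1 in the males and 0 to 2 in the females for CLP against sham, and of 0 to 1 in the females for CLP plus landiolol against sham. In the males, Gzmb was called without CLP plus landiolol replicate 5 (adjusted p 0.0078), and its adjusted p reached 0.0767 over the arrays left out and 0.0519 with no filter. In the last of these comparisons the Gzmb call was lost without sham replicates 2, 4 or 5, CLP replicate 3 or CLP plus landiolol replicates 2 to 6, one at a time, with adjusted p between 0.00394 and 0.0229 over all arrays left out. The number of correlated pairs was 1 and became 2 without the 2 farthest rats of each pair (Cd8a and Gzmb in the males, r = 0.762, adjusted p 0.0486). In CLP against sham, the log2 fold change of Gzmb in the females ranged from −2.32 to −0.90 over the alternatives, and in the males those of Klrd1 and Cd8a, close to background, from −1.06 to −0.06 and from −0.96 to −0.03. Over the single genes and other settings, 642 values kept their side of the threshold, 11 lost a call and 4 gained one, and with each array left out these were 1254, 13 and 5. The cause of these changes was not tested. No paired analysis was possible because the labels carry no replicate numbers.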

Other observations

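Cxcl9 and Cxcl10, ligands of the receptor CXCR3 on activated T and NK cells, fell after CLP in both sexes. Cxcl9 went from 7.79–11.4 in sham males to 5.89–7.21 in CLP males (log2 fold change −2.72, adjusted p 0.00548) and from 11.3–14.2 in sham females to 5.93–7.79 in CLP females (−6.27, adjusted p 1.68e-05), with no overlap of the groups. Cxcl10 had log2 fold changes of −2.66 in the males and −5.07 in the females. Of the recruitment and cytokine list, 14 genes were tested in the males (1 rose, 3 fell) and 13 in the females (1 rose, 2 fell). Il18, which activates NK cells, rose in both sexes (1.18 and 1.0), and Cxcl12 fell in the males (−1.62).

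Cd72, a B cell receptor also found on macrophages, was higher than sham in CLP plus landiolol (log2 fold change 1.77 in the males and 2.40 in the females). It was well above background on 2 of 5 sham, 3 of 5 CLP and 6 of 6 treated males. The female counts were 0 of 5, 1 of 5 and 5 of 6. In both sexes it was thus tested only through the treated rats, where it was highest, so these calls carry no weight. No female sham array was well above background, and treated females were 3-fold higher against the floor for dim arrays.

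The genes whose deviations from the group means were most like those of Prf1 over the 32 arrays were Nkg7 (r = 0.775), Ccl5 (0.682), Gzmk (0.672), Il21r (0.641) and Foxp2 (0.637). For Cd3e, which lay near background, they were Slc35d1 (0.628), Eddm3b (0.627), Klhl28 (0.62), Osm (0.617) and Scrn3 (0.604). These are descriptions over arrays that share slides.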
